A study of Mus musculus with 6 samples.

Results

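Messenger RNA levels of 10 tight junction genes were compared between 3 g*Spns1*-cKO livers and 3 control livers. These were 8 claudins (*Cldn1*, *Cldn2*, *Cldn3*, *Cldn4*, *Cldn5*, *Cldn7*, *Cldn12* and *Cldn14*), *Ocln*, which encodes occludin, and *Tjp1*, which encodes the scaffold protein ZO-1. The genes were chosen by symbol from the 54532 genes of the deposited count table, and all 10 were among the 15449 genes with enough counts to be tested. The g*Spns1*-cKO mice were *Spns1* fl/fl mice carrying the tamoxifen-dependent Rosa26Cre-ERT2, which is active in the whole body and not in one liver cell type. According to the methods, exon 3 of *Spns1* was deleted with tamoxifen, injected at 50 mg/kg on postnatal days 11, 13 and 15. The sample labels call the controls wild type, whereas the methods name *Spns1* fl/fl littermates as controls. The age at liver collection, and whether control mice received tamoxifen, are not given in the sources used here. *Spns1* encodes a lysosomal transporter of lysophospholipids. The labels number the livers 1 to 3 in each group. The p-values of the main test, from edgeR, set a group difference against the spread between these samples, estimated with information from all genes.

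Tight junctions close the gap between neighbouring cells of an epithelium or endothelium. Claudins are four-pass membrane proteins whose strands set which ions and solutes pass between the cells, some by sealing the gap and others by forming pores. Occludin, also a four-pass protein, lies in the same strands, and ZO-1 binds both from the cytoplasm and ties them to actin. In the liver, hepatocyte tight junctions separate the bile canaliculus from the blood, bile ducts are lined by cholangiocytes with junctions of their own, and claudin-5 is the typical claudin of endothelium.

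*Cldn3* and *Cldn4* are neighbouring single-exon genes on chromosome 5 of GRCm38, 39279 bases apart and on opposite strands. *Cldn3* was lower and *Cldn4* higher in g*Spns1*-cKO livers, and *Cldn7*, on chromosome 11, was higher together with *Cldn4*, so the 250 bases before the start of each of these genes are shown. The sequences are from RefSeq (GRCm38.p6), run 5′ to 3′ on the strand of the gene and end at the base before the start. The *Cldn3* window is chr5:134985964-134986213 on the plus strand, the *Cldn4* window chr5:134946935-134947184 on the minus strand and the *Cldn7* window chr11:69964529-69964778 on the plus strand. Capitals mark matches, on either strand, to the GC box letters GGGCGG or to CAGGTG, an E-box of the kind bound by Snail and Zeb repressors.
*Cldn3*: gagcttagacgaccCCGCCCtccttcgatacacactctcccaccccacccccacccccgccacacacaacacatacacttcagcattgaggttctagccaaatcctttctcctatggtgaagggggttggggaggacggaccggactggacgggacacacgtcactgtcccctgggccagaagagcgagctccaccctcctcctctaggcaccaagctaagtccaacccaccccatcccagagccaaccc
*Cldn4*: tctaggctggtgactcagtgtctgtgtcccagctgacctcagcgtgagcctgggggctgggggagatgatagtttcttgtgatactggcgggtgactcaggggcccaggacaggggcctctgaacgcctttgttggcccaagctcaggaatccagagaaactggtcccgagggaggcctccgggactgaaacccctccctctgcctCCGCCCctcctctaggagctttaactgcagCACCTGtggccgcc
*Cldn7*: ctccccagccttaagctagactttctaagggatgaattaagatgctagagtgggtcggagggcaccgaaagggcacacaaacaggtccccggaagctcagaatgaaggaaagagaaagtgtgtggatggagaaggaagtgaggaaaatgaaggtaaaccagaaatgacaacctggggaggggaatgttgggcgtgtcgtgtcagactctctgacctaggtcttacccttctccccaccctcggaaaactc
The *Cldn3* window held the GC box letters once, at -236, where -1 is the base before the start and the position is that of the first base of the match. The *Cldn4* window held them at -44 and CAGGTG on the opposite strand at -14, and the *Cldn7* window shown held neither. A second *Cldn7* start is listed, whose window, not shown because it overlaps exons, held CAGGTG letters at -97 and -57 and the GC box letters at -6. Of 32851 windows of this length before RefSeq starts, 32.7% held GGGCGG and 17.2% held CAGGTG on either strand. Over all 16 start sites listed for the 10 genes, 10 windows held GGGCGG and 4 held CAGGTG. AACCNGTT, the letters bound by grainyhead-like factors, was found in 1 of the 16, before *Cldn5*, and in 1.79% of all windows. TATAAA was found in 1 of the 16, before *Cldn2*, and in 12.4% of all windows. GC content was 60.8% in the *Cldn3* window, 62.0% in the *Cldn4* window and 51.2% in the *Cldn7* window. These matches describe the letters only, and binding was not measured.

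The libraries held between 30350002 and 35295611 counts. Levels are given as CPM, where the library total is adjusted by TMM, a method of edgeR that sets the typical gene to no change. Its factors were between 0.834 and 0.873 in control and between 1.16 and 1.18 in g*Spns1*-cKO libraries, so directions are relative to this scaling. A floor of 3 counts lay between 0.0763 and 0.119 CPM and covers counting error only. *Alb*, which encodes the hepatocyte product albumin, was between 37432 and 77394 CPM in all 6 libraries. *Spns1*, the targeted gene, was at 35.9, 50.7 and 34.6 CPM in control livers, against 17.8, 30.6 and 17.8 in g*Spns1*-cKO livers, without overlap. Its log2 fold change was -0.87 (standard error 0.25, adjusted p = 0.0300, edgeR), and with library size only it was -0.43, not past the threshold. Without control replicate 2, g*Spns1*-cKO replicate 1 or g*Spns1*-cKO replicate 3 it was -0.68, -0.74 and -0.74, also not past.

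Of the 10 tight junction genes, *Cldn1*, *Cldn4*, *Cldn7* and *Tjp1* rose and *Cldn3* and *Cldn12* fell in g*Spns1*-cKO livers. *Cldn2*, *Cldn5*, *Cldn14* and *Ocln* did not pass the threshold. Calls are from the quasi-likelihood test of edgeR at a threshold of 0.05 on the p adjusted by Benjamini-Hochberg over all genes tested. The 6 genes are 60% of the 10, whereas 41.8% of all genes tested passed, 21.3% as higher and 20.5% as lower. With library size only, 6 of the 10 genes were higher and 0 lower, while 7289 of all genes were higher and 970 lower, and with upper-quartile scaling 4 of the 10 were higher and 1 lower, and of all genes 4111 and 2240. Control and g*Spns1*-cKO livers did not overlap in the same number of genes, 6 of 10, against 54.1% of all genes tested, 27.1% as higher and 26.9% as lower. The median log2 fold change was 0.38 over the 10 genes and 0.014 over all genes tested. *Cldn4* and *Cldn7* reached the level of the count filter, 0.307 CPM before TMM scaling, in 0 and 1 of the 3 control libraries and in all 3 g*Spns1*-cKO libraries. They were therefore tested because of the group in which they are high, so these counts and the median are no support for a change of the group of genes. The other 8 genes reached that level in all 6 libraries. Summed over the 10 genes, levels were between 345 and 389 CPM in control livers and between 325 and 448 CPM in g*Spns1*-cKO livers, which overlap.

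**Figure D1:**
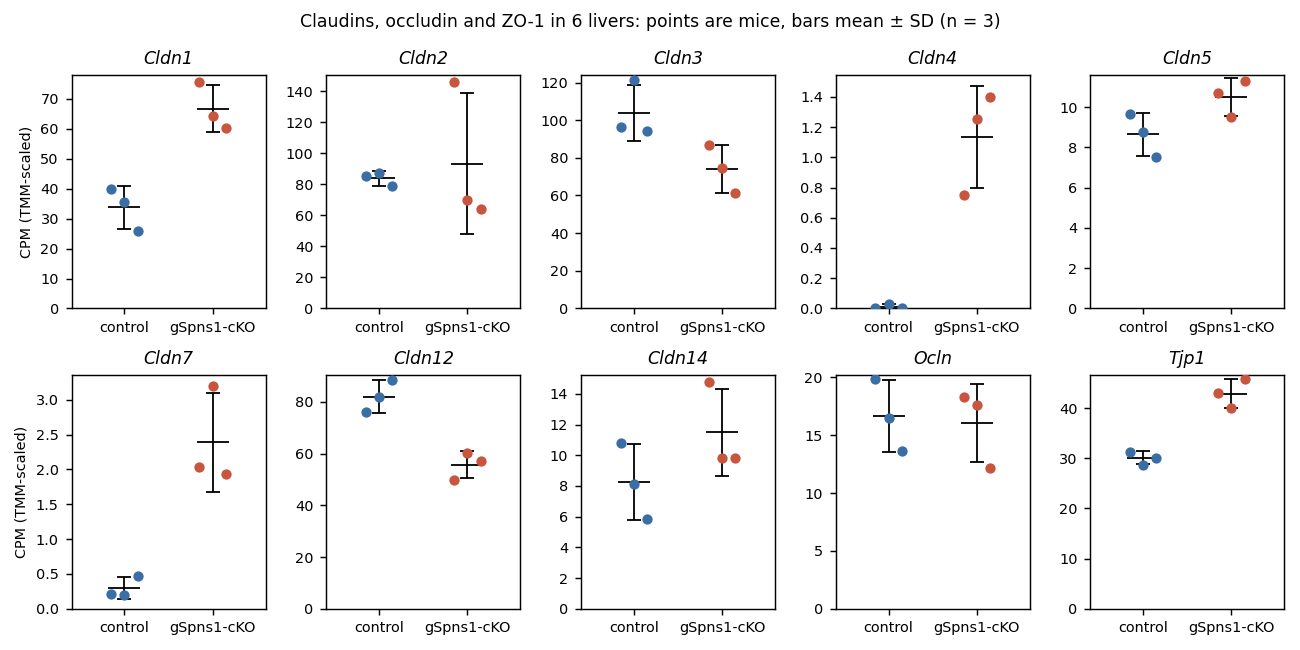
CPM (vertical axes, each from 0) of the 10 genes in control and g*Spns1*-cKO livers, with 1 point per mouse and bars for the mean ± SD (n = 3). Groups were apart for *Cldn1*, *Cldn4*, *Cldn7* and *Tjp1* (g*Spns1*-cKO higher) and for *Cldn3* and *Cldn12* (g*Spns1*-cKO lower), and *Cldn2* was high in 1 g*Spns1*-cKO liver, at 146 CPM.

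Levels of different genes were compared per length, as the deposited FPKM (fragments scaled to gene length and a library factor). That factor was not the plain count total. FPKM values were close to CPM per kilobase of gene length, so they carry a scaling between the groups near that of TMM. *Cldn3* was the most abundant of the 10 in control livers at 81.8 ± 12.3 FPKM (SD, n = 3). It was followed by *Cldn2* at 25.0 ± 1.37 FPKM and *Cldn12* at 19.3 ± 1.6 FPKM. These first 3 did not overlap in range. *Cldn1* was at 6.92 ± 1.43 FPKM and *Cldn5* at 6.05 ± 0.710 FPKM, and their ranges overlapped. *Ocln* at 3.91 ± 0.700, *Cldn14* at 3.84 ± 1.13 and *Tjp1* at 3.82 ± 0.137 FPKM followed, each overlapping its neighbour in the order. Last came the claudins of ducts and simple epithelia, *Cldn7* at 0.15 ± 0.0803 and *Cldn4* at 0.00594 ± 0.0103 FPKM.
In g*Spns1*-cKO livers *Cldn3* and *Cldn2* still led, at 48.0 to 68.0 and 19.2 to 43.4 FPKM. *Cldn1* stood at 13.6 ± 1.63 FPKM and *Cldn12* at 11.7 to 14.0 FPKM, with overlapping ranges, so *Cldn1* no longer lay below *Cldn12* as it did in control livers. *Tjp1* at 5.41 ± 0.384 FPKM lay above *Ocln* at 3.75 ± 0.777 FPKM, a pair whose ranges overlapped in control livers. *Cldn7* at 1.21 ± 0.354 FPKM and *Cldn4* at 0.616 ± 0.185 FPKM remained the lowest.

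Among the claudins that are abundant in liver, *Cldn1* (ENSMUSG00000022512, chromosome 16, 26356642 to 26371841, minus strand) encodes a sealing claudin that also serves as a hepatitis C virus entry factor in people. It was at 40.0, 35.5 and 25.9 CPM in control livers and 75.6, 64.4 and 60.3 CPM in g*Spns1*-cKO livers. The lowest g*Spns1*-cKO liver was above the highest control. *Cldn1* rose by 0.98 on the log2 scale (standard error 0.16, 95% interval 0.62 to 1.34, adjusted p = 0.0011, edgeR), a fold of 1.97.

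*Cldn3* (ENSMUSG00000070473, chromosome 5, 134986214 to 134987472, plus strand) encodes a sealing claudin found throughout the liver lobule. It was at 96.2, 121 and 94.1 CPM in control livers and 86.7, 74.8 and 61.1 CPM in g*Spns1*-cKO livers. The highest g*Spns1*-cKO liver, at 86.7 CPM, was below the lowest control, at 94.1 CPM. *Cldn3* fell by 0.49 on the log2 scale (standard error 0.15, adjusted p = 0.0253, edgeR). Scaled by library size only, its log2 fold change was -0.04 (adjusted p = 0.823, edgeR). Without control replicate 2, g*Spns1*-cKO replicate 2 or g*Spns1*-cKO replicate 3, the values were -0.37, -0.49 and -0.36, none past the threshold. Its exon shares 40 bases with *Wbscr25* on the opposite strand, which had at most 2 counts in any library.

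*Cldn12* (ENSMUSG00000046798, chromosome 5, 5489537 to 5514958, minus strand) encodes a claudin that lacks the usual motif for binding ZO-1. It was at 76.0, 81.7 and 88.5 CPM in control livers and 49.9, 60.3 and 57.0 CPM in g*Spns1*-cKO livers. The groups were apart, with the highest g*Spns1*-cKO liver at 60.3 and the lowest control at 76.0 CPM. *Cldn12* fell by 0.56 on the log2 scale (standard error 0.11, 95% interval -0.81 to -0.31, adjusted p = 0.00316, edgeR). Scaled by library size only, the log2 fold change was -0.11 (adjusted p = 0.413, edgeR).

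*Cldn2* (ENSMUSG00000047230, chromosome X, 139800828 to 139811386, plus strand) encodes a pore-forming claudin that lets cations and water pass. It was at 85.4, 87.7 and 78.7 CPM in control livers and 146, 69.8 and 64.5 CPM in g*Spns1*-cKO livers. One g*Spns1*-cKO liver, replicate 1, was above every control and the other 2 were below every control. The log2 fold change was 0.15 (standard error 0.33, 95% interval -0.65 to 0.95, adjusted p = 0.740, edgeR). Without g*Spns1*-cKO replicate 1 it was -0.32 (adjusted p = 0.0420, edgeR). The value for *Cldn2* thus rests on 1 library, and its direction cannot be given from these 6 livers. *Cldn2* is known to be highest around the central vein, so genes of that zone were read beside it. Of 9 pericentral hepatocyte genes, 0 rose and 3 fell (1 and 1 with library size only). The 3 are 33.3% of the 9, whereas 41.8% of all genes tested passed, 20.5% as lower. Their summed level was 9587 to 12246 CPM in control and 5765 to 8644 CPM in g*Spns1*-cKO livers, over all 9 genes. *Glul* and *Cyp2e1* are also in the list of hepatocyte markers read below. The zone-defining *Glul*, glutamine synthetase, had a log2 fold change of -0.16 (adjusted p = 0.547) and *Cyp1a2* also -0.16 (adjusted p = 0.504), while *Oat* at -0.86 (adjusted p = 0.0368) and *Cyp2e1* at -0.83 (adjusted p = 0.0296, all edgeR) fell. The part of these zonal genes in the *Cldn2* values was not tested.

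*Cldn14* (ENSMUSG00000047109, chromosome 16, 93919031 to 94008837, minus strand) encodes a claudin that restricts cation passage and is known from hearing loss and urinary calcium. It was at 10.8, 8.12 and 5.85 CPM in control livers and 14.8, 9.85 and 9.82 CPM in g*Spns1*-cKO livers. Control replicate 1 lay above 2 of the g*Spns1*-cKO livers. The log2 fold change was 0.47 (standard error 0.24, 95% interval -0.07 to 1.02, adjusted p = 0.148, edgeR), and without control replicate 1 it was 0.70, past the threshold.

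Hepatocyte marker genes moved beside these claudins. Of 12 hepatocyte markers, 0 rose and 8 fell (1 and 2 with library size only), with a median log2 fold change of -0.71. The 8 are 66.7% of the 12, whereas 41.8% of all genes tested passed, 20.5% as lower. The summed level of the 12 was 114097 to 126937 CPM in control livers and 67232 to 78501 CPM in g*Spns1*-cKO livers. *Alb* at -0.73 (adjusted p = 0.0101) and *Apoa1*, the main protein of high density lipoprotein, at -0.76 (adjusted p = 0.00997) were among those that fell, whereas *Ttr* at -0.47 (adjusted p = 0.0545) and *Cps1* of the urea cycle at 0.36 (adjusted p = 0.10, all edgeR) did not pass. In whole liver, fewer cells of a type and less RNA per cell cannot be told apart. The part of these markers in the lower *Cldn3* and *Cldn12* levels was not tested.

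*Cldn4* (ENSMUSG00000047501, chromosome 5, 134945119 to 134946934, minus strand) encodes a claudin of ducts and other simple epithelia, and a receptor for a Clostridium enterotoxin. It had 0, 1 and 0 counts in control livers, against 27, 48 and 55 counts in g*Spns1*-cKO livers, or 0.751, 1.25 and 1.40 CPM in the latter. *Cldn4* was at or below the floor of 3 counts in every control library and above it in every g*Spns1*-cKO library. The summed 130 counts against 1 gave a ratio of 96.3 with a 95% counting interval from 17.0 to 3834, and edgeR's adjusted p was 0.000198. The fitted log2 fold change of 6.19 depends on the prior count that edgeR adds, so the ratio and its interval are the better guide to its size.

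*Cldn7* (ENSMUSG00000018569, chromosome 11, 69964779 to 69967885, plus strand) encodes a claudin of duct and gut epithelium that binds EpCAM. It had 6, 6 and 12 counts in control livers, against 73, 123 and 76 counts in g*Spns1*-cKO livers, or 0.213, 0.195 and 0.474 CPM against 2.03, 3.21 and 1.93 CPM. The lowest g*Spns1*-cKO value was several times the highest control. *Cldn7* rose by 3.03 on the log2 scale (standard error 0.42, 95% interval 2.10 to 3.97, adjusted p = 0.000374, edgeR), and 272 summed counts against 24 gave a ratio of 8.40 with a counting interval from 5.53 to 13.3.

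Markers of cholangiocytes were higher in the same livers as *Cldn4* and *Cldn7*. Of 16 cholangiocyte markers 14 were tested, of which 11 rose and 0 fell, with a median log2 fold change of 2.12. The 11 are 78.6% of the 14, whereas 41.8% of all genes tested passed, 21.3% as higher. Among those that rose, *Cftr* was below the filter level in all 3 control libraries and *Muc1* in at least 1, so both were tested because of the g*Spns1*-cKO group. Of the other 12, 9 rose, with a median of 2.08. Summed over all 16 markers, levels were 196 to 206 CPM in control livers and 382 to 479 CPM in g*Spns1*-cKO livers. The defining *Krt19*, a keratin of bile duct cells, had a log2 fold change of 2.29 (adjusted p = 0.000152), *Krt7* 2.03 (adjusted p = 0.00656), *Epcam* 3.11 (adjusted p = 4.82e-05) and *Sox9* 1.64 (adjusted p = 0.000615, all edgeR). *Epcam* is also in the list of tight junction partners, and *Cldn4* and *Cldn7* are themselves genes of duct epithelium. *Ggt1*, at 0 counts in every control library, and *Sctr*, at 0 in 2 of 3, had too few counts to be tested. *Krt19* was at 0.925, 1.14 and 0.593 CPM in the control livers, where *Cldn4* had 1 count in all. The part of cholangiocyte RNA in the *Cldn4* and *Cldn7* values was not tested.

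*Cldn5* (ENSMUSG00000041378, chromosome 16, 18776847 to 18778262, plus strand) encodes the sealing claudin of endothelium. It was at 9.64, 8.77 and 7.51 CPM in control livers and 10.7, 9.49 and 11.3 CPM in g*Spns1*-cKO livers, and the groups overlapped. The log2 fold change was 0.28 (standard error 0.15, 95% interval -0.05 to 0.61, adjusted p = 0.156, edgeR). Of 14 endothelial markers 7 rose and 0 fell, or 50% called, whereas 41.8% of all genes tested passed, 21.3% as higher. With library size only all 14 were higher and *Cldn5* itself passed at 0.72. Under that scaling 7289 of the 15449 genes tested were higher, and the median over all genes tested was 0.46. Under TMM the markers had a median log2 fold change of 0.48, and their summed level was 292 to 317 CPM in control and 408 to 449 CPM in g*Spns1*-cKO livers. The defining *Cdh5*, VE-cadherin, had a log2 fold change of 1.06 (adjusted p = 0.000163), *Pecam1* 0.69 (adjusted p = 0.00480), *Kdr* 0.41 (adjusted p = 0.0140) and *Tek* 0.40 (adjusted p = 0.124, all edgeR). The part of endothelial RNA in the *Cldn5* values was not tested.

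*Ocln* (ENSMUSG00000021638, chromosome 13, 100496507 to 100552718, minus strand) was at 19.8, 16.5 and 13.6 CPM in control livers and 18.3, 17.6 and 12.2 CPM in g*Spns1*-cKO livers. The groups overlapped over nearly their whole ranges. The log2 fold change was -0.06 (standard error 0.18, 95% interval -0.47 to 0.35, adjusted p = 0.828, edgeR), and library size scaling turned it to 0.38 and upper-quartile scaling to 0.07, neither past the threshold.

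*Tjp1* (ENSMUSG00000030516, chromosome 7, 65296165 to 65527781, minus strand) was at 31.3, 28.7 and 30.1 CPM in control livers and 43.0, 39.9 and 45.7 CPM in g*Spns1*-cKO livers. Its spread within a group was the smallest of the 10 genes, with a coefficient of variation of 4.32% in control and 6.75% in g*Spns1*-cKO livers, and the groups were apart. *Tjp1* rose by 0.51 on the log2 scale (standard error 0.10, 95% interval 0.29 to 0.74, adjusted p = 0.00280, edgeR), a fold of 1.43.

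For the 6 genes whose groups were apart, the two-sided exact permutation test of the CPM values gave p = 0.1, the smallest that 3 mice against 3 allow. The same exact test gave p = 1.0 for *Cldn2*, 0.2 for *Cldn5*, 0.3 for *Cldn14* and 0.8 for *Ocln*. The genes also varied between livers of a group. Control replicate 3 had the lowest value of its group for 6 of the 10 genes, and g*Spns1*-cKO replicate 3 for 6 of the 10. For *Cldn4*, control replicates 1 and 3 were tied at 0 counts. g*Spns1*-cKO replicate 1 had the highest value of its group for 5 genes, namely *Cldn1*, *Cldn2*, *Cldn3*, *Cldn14* and *Ocln*, and the lowest for *Cldn4* and *Cldn12*.

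**Figure D2:**
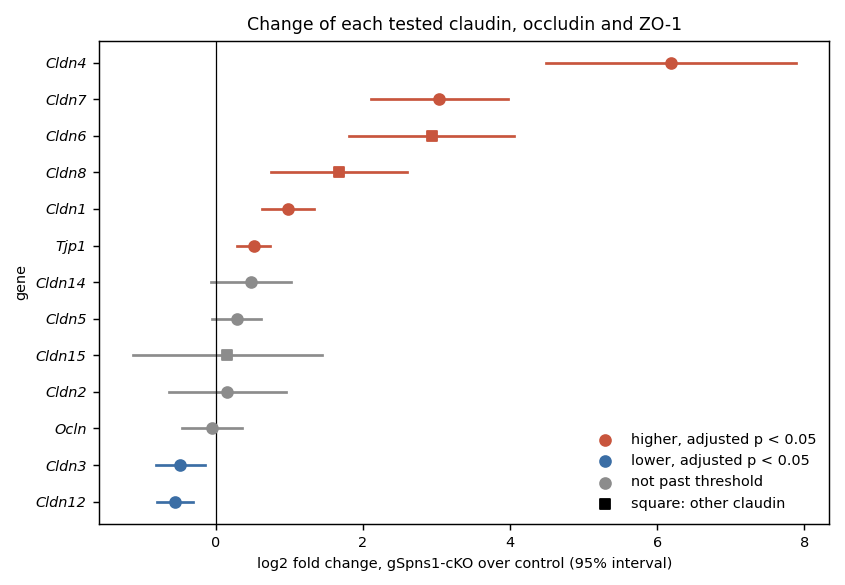
Log2 fold change (horizontal axis) with its 95% interval for the 10 genes (circles) and the other claudins tested (squares), coloured by the edgeR call. *Cldn4* and *Cldn7* lie farthest to the right at 6.19 and 3.03, *Cldn3* and *Cldn12* lie left of 0 at -0.49 and -0.56, and the size for *Cldn4* depends on the prior count.

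The claudins were also read as a mixture, because a share within a library does not depend on how the libraries are scaled. Each claudin's counts per kilobase were divided by the sum over all 33 claudin genes of the table, of which 15 had no count. The shares of a library add up to a fixed total. A lower share can therefore follow from higher levels of other claudins, and does not by itself show that the gene fell. *Cldn3* made up 54.0%, 59.7% and 55.8% of that sum in control livers, against 43.6%, 48.0% and 44.1% in g*Spns1*-cKO livers. The groups were apart, with a difference of -11.2 percentage points. *Cldn1* made up 5.84%, 4.55% and 4.0% in control livers, against 9.89%, 10.8% and 11.3% in g*Spns1*-cKO livers, also apart, a difference of 5.86 points. *Cldn14* made up 2.67% ± 0.812 in control livers (SD, n = 3) and 4.11% ± 0.338 in those of g*Spns1*-cKO mice and did not overlap, although its CPM did. *Cldn4* went from 0.00370% to 0.507% and *Cldn7* from 0.107% to 0.964% on average. For these 5 genes the two-sided exact permutation test gave p = 0.1, the smallest possible, or 0.164 after adjustment over the 18 claudins with a count, so no share could pass 0.05 in this design.

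The shares of *Cldn2*, *Cldn5* and *Cldn12* overlapped between the groups. *Cldn2* made up 17.4% ± 0.927 in control livers and 20.8% ± 6.07 after *Spns1* deletion (SD, n = 3, exact permutation p = 0.6), with 27.8% in g*Spns1*-cKO replicate 1 and 17.0% and 17.6% in replicates 2 and 3. *Cldn12*, which was apart in CPM, made up 13.4% ± 1.94 and 10.4% ± 2.58 (SD, n = 3, exact permutation p = 0.2). *Cldn5* made up 4.2% ± 0.529 and 5.82% ± 1.29 (SD, n = 3, exact permutation p = 0.2). The sum over all claudins was 139, 161 and 133 FPKM in control and 156, 122 and 109 FPKM in g*Spns1*-cKO livers. With the scaling of the deposited FPKM, the groups thus overlapped in claudin RNA per length as a whole.

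**Figure D3:**
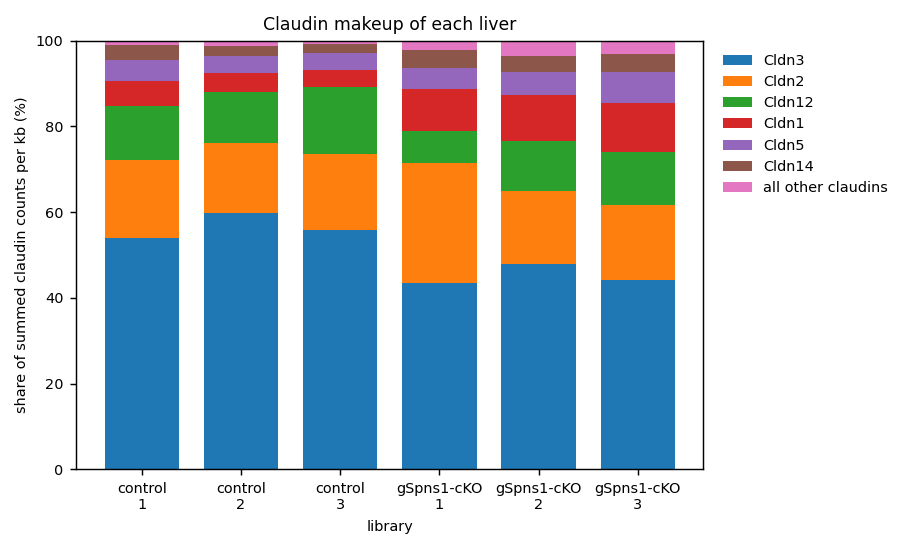
Share of each claudin (percent of summed claudin counts per kilobase, vertical axis) in each of the 6 libraries. The *Cldn3* share was 54.0% to 59.7% in control and 43.6% to 48.0% in g*Spns1*-cKO livers, the *Cldn1* share was larger in all 3 g*Spns1*-cKO livers, and g*Spns1*-cKO replicate 1 had the largest *Cldn2* share at 27.8%.

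Ratios of FPKM within a library, chosen after the values were seen and given without a test, describe the same mixture pair by pair. *Cldn1* over *Cldn3* was 0.108, 0.0761 and 0.0717 in control livers, against 0.227, 0.224 and 0.257 in g*Spns1*-cKO livers. *Cldn1* over *Cldn12* was 0.460, 0.379 and 0.256 against 1.32, 0.933 and 0.923. Both ratios were higher in every g*Spns1*-cKO liver. *Cldn7* over *Epcam* was 0.251, 0.299 and 0.785 in control livers, against 0.356, 0.393 and 0.442 in g*Spns1*-cKO livers. These values overlap, with control replicate 3 above all 3 g*Spns1*-cKO livers and the other 2 control livers below them. *Cldn7* over *Krt19* was 0.220, 0.163 and 0.762 against 0.443, 0.719 and 0.411, which overlap as well. Both *Cldn7* ratios rest on 6, 6 and 12 *Cldn7* counts in the control livers. *Cldn4* over *Epcam* was 0, 0.0535 and 0 in control livers, against 0.141, 0.164 and 0.343 in g*Spns1*-cKO livers. *Cldn4* over *Krt19* was 0, 0.0292 and 0 against 0.176, 0.301 and 0.319. Both *Cldn4* ratios were higher in all 3 g*Spns1*-cKO livers, but rest on 0, 1 and 0 *Cldn4* counts in the control livers. *Cldn5* was set over each of the 14 endothelial markers. The ratio was lower in all 3 g*Spns1*-cKO livers for 6 markers, among them *Cdh5* (2.20, 1.80 and 1.72 against 0.993, 1.13 and 1.22) and *Pecam1* (3.69, 2.68 and 3.07 against 2.11, 2.48 and 2.46). It was higher in all 3 for 2 markers, *Clec4g* and *Egfl7*, and overlapped for 6, among them *Kdr* (1.48, 1.57 and 1.43 against 1.47, 1.22 and 1.40) and *Tek* (3.36, 5.29 and 3.70 against 3.92, 3.34 and 3.66). The place of *Cldn5* relative to endothelium thus depended on the marker chosen. *Tjp1* over *Ocln* was 0.853, 0.940 and 1.19 in control and 1.27, 1.22 and 2.03 in g*Spns1*-cKO livers, higher in all 3.

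The other 25 claudin genes were rare or absent in these livers. Only 3 had enough counts to be tested, of which 2 rose and 0 fell, whereas 21.3% of all genes tested were called higher. *Cldn6*, a claudin of embryonic epithelia, had 4, 2 and 4 counts in control and 39, 40 and 27 counts in g*Spns1*-cKO livers, and changed by 2.93 on the log2 scale (standard error 0.50, adjusted p = 0.00128, edgeR). *Cldn8*, known from the distal kidney tubule, had 11, 13 and 10 counts against 32, 74 and 42, and changed by 1.68 on the log2 scale (standard error 0.42, adjusted p = 0.00899, edgeR). Both were apart between the groups. *Cldn6*, like *Cldn4*, reached the filter level in 0 of 3 control libraries and was tested only because of the g*Spns1*-cKO group, so its call is no support for a change of the claudins as a group. *Cldn15*, a pore-forming claudin of the intestine, had 14, 69 and 11 counts against 43, 40 and 53, and its difference was 0.16 on the log2 scale (standard error 0.57, adjusted p = 0.849, edgeR). Control replicate 2 decided that value, and without it the log2 fold change was 1.34, past the threshold. Among claudins too low to be tested, *Cldn18* had 14, 4 and 6 counts in the controls and 0 in every g*Spns1*-cKO liver. Its control mean was at least 3.46-fold above a floor of 3 counts per library. *Cldn20* had 10, 9 and 6 counts against 2, 0 and 0, a ratio of 0.0593 with a counting interval from 0.00681 to 0.238. *Cldn20* lies within *Tfb1m* on the opposite strand and shares no exon bases with it. *Cldn23* had 0 counts in every control library and 4, 7 and 8 after *Spns1* deletion. Its g*Spns1*-cKO mean was at least 1.40-fold above the control floor of 3 counts. Replicate 1 of g*Spns1*-cKO, at 0.111 CPM, was below the highest control floor of 0.119 CPM. *Cldn18*, *Cldn20* and *Cldn23* were named after their values were seen.

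The proteins that work with claudins were read from a list of 38 genes, of which 37 were tested. Of these, 13 rose, 8 fell and 16 did not pass, with a median log2 fold change of 0.23. The genes called are 56.8% of the 37, whereas 41.8% of all genes tested passed, 21.3% as higher and 20.5% as lower. Summed over all 38, levels were 995 to 1094 CPM in control and 981 to 1121 CPM in g*Spns1*-cKO livers. Beside 7289 higher and 970 lower of all genes with library size only, the partners were 20 higher and 1 lower. Beside 4111 and 2240 of all genes with upper-quartile scaling, the partners were 14 and 4. Those that rose most were *Spint1* at 3.57 (adjusted p = 0.000208), *Epcam* at 3.11 (adjusted p = 4.82e-05), *Arhgef2* at 3.09 (adjusted p = 1.18e-05) and *St14* at 2.74 (adjusted p = 0.000236, all log2 fold changes from edgeR). *St14* encodes matriptase, a membrane protease of epithelia, *Spint1* its inhibitor, *Epcam* a membrane protein that holds claudin-7, and *Arhgef2* a protein found at tight junctions. *Epcam* was at 0.889, 0.682 and 0.632 CPM in control livers and 5.98, 8.55 and 4.58 CPM in g*Spns1*-cKO livers, without overlap. Those that fell most were *Prkcz* at -1.14 (adjusted p = 0.00483), *Spint2* at -0.69 (adjusted p = 0.00482), *Rab13* at -0.67 (adjusted p = 0.00431) and *Mpp5* at -0.55 (adjusted p = 0.00951). *Prkcz* encodes an atypical protein kinase C and *Mpp5* the scaffold PALS1, both of apical polarity complexes, *Rab13* a GTPase of junction traffic, and *Spint2* a second inhibitor of matriptase. *Spint1* and *Ildr1*, both among those that rose, were below the filter level in all 3 control libraries.

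Adherens junctions lie just below tight junctions and hold cells together through cadherins and nectins. The list of 18 adherens junction genes also holds the desmosome genes *Dsp*, *Dsg2*, *Dsc2* and *Pkp2*. Beside 41.8% of all genes tested, 21.3% as higher and 20.5% as lower, 61.1% of the 18 passed. Beside 7289 higher and 970 lower of all genes with library size only, the 18 gave 14 and 2. Under TMM 7 of the 18 rose and 4 fell, with a median log2 fold change of 0.19. *Dsg2* was among those that rose and *Pkp2* among those that fell, while *Dsp* and *Dsc2* did not pass. *Cdh1*, E-cadherin, was at 23.5, 24.4 and 20.7 CPM in control livers and 112, 78.7 and 110 CPM in g*Spns1*-cKO livers, far apart, and changed by 2.13 on the log2 scale (standard error 0.15, adjusted p = 8.75e-06, edgeR). *Nectin4*, below the filter level in all 3 control libraries, rose by 1.82 (adjusted p = 0.00883), whereas *Nectin2* at -1.44 (adjusted p = 0.00102) and *Nectin3* at -0.81 (adjusted p = 0.000731, all edgeR) fell. Of 17 regulators of epithelial junction genes 15 were tested, of which 7 rose and 1 fell, with a median log2 fold change of 0.81. Those called are 53.3% of the 15, beside the same 41.8% of all genes tested. With library size only, 11 regulators were higher and 0 lower. Of the 15, 7 were below the filter level in at least 1 control library, *Grhl2*, *Klf5* and *Esrp1* in all 3, and so were tested because of the g*Spns1*-cKO group. These 7 hold 6 of the 7 that rose, the median of the other 8 was 0.23, and with at least 10 counts in every library 2 regulators were higher, so the count is no support for a change of the list. *Grhl2*, a grainyhead-like activator of claudin and E-cadherin genes, had 2, 0 and 2 counts in control livers, against 20, 44 and 27 in those of g*Spns1*-cKO mice, and the change was 3.96 on the log2 scale (standard error 0.72, adjusted p = 0.00175, edgeR). *Esrp1*, an epithelial splicing factor, had 0, 6 and 0 counts against 24, 48 and 26, and the change was 3.55 on the log2 scale (standard error 0.84, adjusted p = 0.00743, edgeR). The genes that rose also included the Snail and Zeb repressors *Snai1* at 2.08 (adjusted p = 0.00254) and *Zeb2* at 1.69 (adjusted p = 1.61e-05, both log2 fold changes from edgeR), named after their values were seen. *Snai1* was below the filter level in at least 1 control library. *Snai2* and *Zeb1*, the other Snail and Zeb repressors of the list, were not among the genes that rose or fell. *Esrp2*, a relative of *Esrp1* and the form known from adult hepatocytes, fell by 0.47 on the log2 scale (adjusted p = 0.0150, edgeR).

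Markers of other liver cell types were read in the same libraries, where 21.3% of all genes tested were called higher and 20.5% lower. All 10 macrophage markers rose, with a summed level of 135 to 200 CPM in control and 594 to 839 CPM in g*Spns1*-cKO livers, among them *Adgre1* at 2.14, *Csf1r* at 1.63, *Cd68* at 2.14 and *Clec4f* at 1.14 on the log2 fold change scale. Of 10 stellate cell markers 8 rose and 0 fell, with 228 to 270 CPM against 614 to 689 CPM. *Lrat* at 1.22, *Reln* at 0.72, *Des* at 0.90 and *Pdgfrb* at 1.82 were among those that rose. Of 10 lymphocyte markers, 7 of them below the filter level in at least 1 control library, 3 rose and 1 fell, with 4.94 to 5.80 CPM against 8.01 to 8.39 CPM. *Cd4* fell by 1.26, while *Cd3e* at -0.001, *Cd3g* at 0.23 and *Cd8a* at 1.95 did not pass. Of 8 neutrophil markers 5 were tested, of which 4 rose and 0 fell. Summed over all 8, levels were 3.49 to 6.11 CPM against 9.95 to 16.2 CPM. Of the 5 tested, *Cxcr2* and *Retnlg* were below the filter level in at least 1 control library, as was the macrophage marker *Gpnmb*. *S100a8* at 1.46, *S100a9* at 1.37 and *Csf3r* at 1.97 rose, and the defining *Ly6g* was at 0 in every g*Spns1*-cKO library and not tested. Their part in the values of the 10 tight junction genes was not tested.

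**Figure D4:**
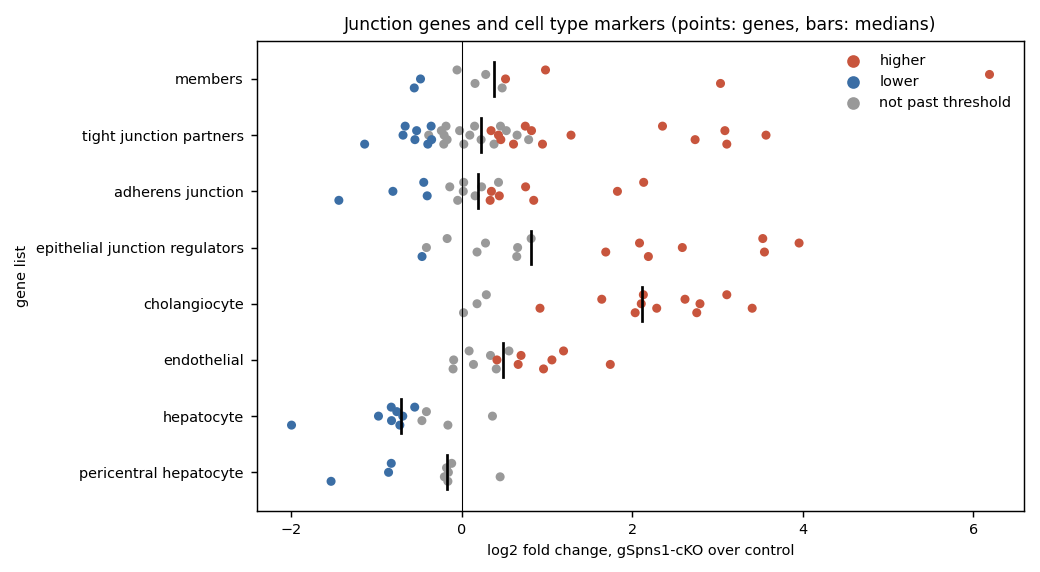
Log2 fold changes of the tested genes of each list (points, coloured by call) with the median of the list (bars). The 10 tight junction genes spread on both sides of 0 with a median of 0.38, the cholangiocyte list has a median of 2.12, and the hepatocyte list a median of -0.71.

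Over all genes tested, the median change on the log2 scale was 0.014 under TMM and became 0.46 with library size only and 0.14 with upper-quartile scaling. *Cldn1*, *Cldn4*, *Cldn7* and *Tjp1* passed the threshold as higher under each of these scalings and under DESeq2's size factors in edgeR. *Cldn3* at -0.36 (adjusted p = 0.0751, edgeR) did not pass under upper-quartile scaling, and with library size only neither *Cldn3* nor *Cldn12* passed while *Cldn5* at 0.72 and *Cldn14* at 0.91 did.

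**Figure D5:**
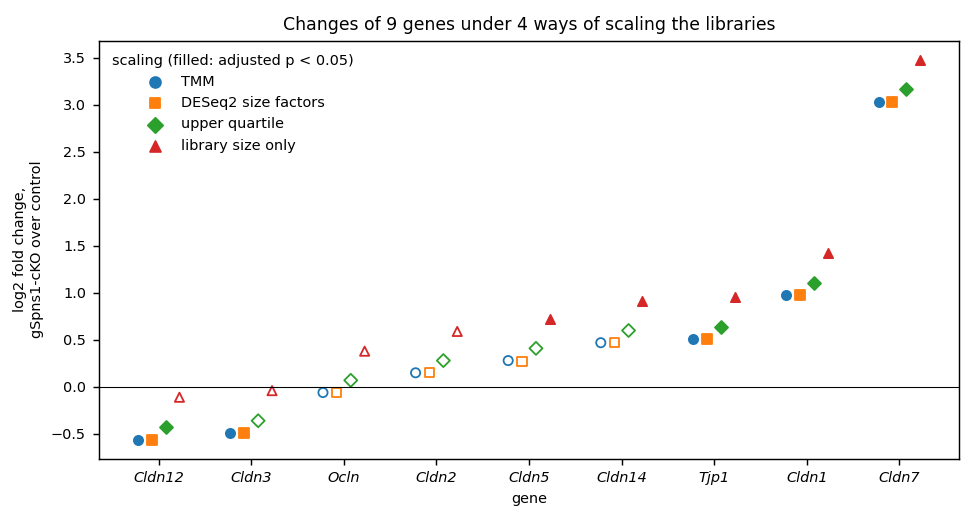
Log2 fold changes (vertical axis) of 9 of the 10 genes, without *Cldn4*, under 4 ways of scaling the libraries, with filled symbols for an adjusted p under 0.05 in edgeR. *Cldn1*, *Cldn7* and *Tjp1* stay above 0 and filled under all 4, whereas *Cldn3* lies between -0.49 and -0.04 and *Ocln* between -0.06 and 0.38.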

How the data were processed

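RNA of whole livers from 3 control and 3 g*Spns1*-cKO mice was enriched for poly-A messenger RNA and sequenced by a commercial service. The authors deposited whole-number counts per gene, not normalized, and FPKM. In FPKM a count is divided by the length of its gene and by a library factor, which was not the plain count total. The deposited gene length was used for shares per kilobase. The submitters' processing notes name fastp, HISAT2 2.0.5, featureCounts 1.5.0-p3 and mm10 (GRCm38), and the strand setting is not given in the sources used here. The deposited comparison of the groups (fold changes and p-values) was not used. Positions are those of the table, and of 54409 genes found in GENCODE M21 98.3% had the same coordinates.

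Tests used edgeR 4.0.16 in R 4.3.3, with filterByExpr by genotype, TMM, glmQLFit with the robust setting, glmQLFTest and Benjamini-Hochberg adjustment over 15449 genes. The standard error is the fold change over the root of F. Counting intervals are exact binomial, 95%, and cover counting error only. Per gene, replicates differed beyond sampling noise (chi-square 42.5 to 126 per gene), so each library is 1 replicate. Alternatives were DESeq2 1.42.0, limma-voom (limma 3.58.1), other scalings and filters, a replicate block and leaving out each library. Scripts were tested on simulated data. The text names the 10 genes, *Spns1*, every other tested claudin, the most changed past the threshold of each junction list (4 per direction for tight junction partners, 2 for the others) and the first 4 of each marker list. Members and lists were chosen with earlier results of these data known.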

Additional observations from a re-analysis of the deposited data

How the results depend on the processing

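Fold changes and counts of calls were recomputed under 14 alternatives, or as many as tested the gene, and claudin shares under 8. Ratios within a library and the order of levels were not recomputed. The fold changes of *Cldn1* and *Tjp1* kept their direction and passed the threshold under all 14, and *Cldn4* and *Cldn7* under all in which they were tested. With library size only, the log2 fold change was -0.04 for *Cldn3*, -0.11 for *Cldn12* and -0.43 for *Spns1*, none past the threshold, 0.72 for *Cldn5* and 0.91 for *Cldn14*, both past it, and 0.38 for *Ocln*, which reversed. With upper-quartile scaling it was -0.36 for *Cldn3* and -0.74 for *Spns1*, no longer past, and 0.07 for *Ocln*, reversed. *Cldn14* passed at 0.47 when every gene with at least 1 count in any library was tested (adjusted p = 0.0259, edgeR).

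Leaving out each library in turn gave ranges of -0.32 to 0.36 for *Cldn2*, -0.61 to -0.36 for *Cldn3*, 0.25 to 0.70 for *Cldn14*, -0.19 to 0.11 for *Ocln* and -1.18 to -0.68 for *Spns1*. *Cldn2* reversed and passed the threshold as lower, at -0.32, without g*Spns1*-cKO replicate 1. The difference in the *Cldn2* share went from -0.0856 to 5.34 percentage points, and was below 0 without that same library. Between 1 and 3 of the 10 genes were called lower, 4 to 8 tight junction partners, 0 to 2 regulators, 0 to 1 lymphocyte markers and 1 to 3 pericentral genes, and 0 to 1 pericentral genes were called higher.

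Counts of calls moved as follows. With library size only, 0 of the 10 genes were lower, tight junction partners were 20 higher and 1 lower, adherens junction genes 14 and 2, regulators 11 and 0, endothelial markers 14 higher, hepatocyte markers 1 higher and 2 lower, lymphocyte markers 5 and 0, and pericentral genes 1 and 1, while all genes were 7289 higher and 970 lower. With upper-quartile scaling, 1 of the 10 genes, 4 partners, 0 regulators and 1 pericentral gene were lower, and 1 hepatocyte and 1 pericentral gene were higher. With at least 10 counts in every library, *Cldn4* and *Cldn7* were not tested, which left 2 of the 10 genes higher, 1 other claudin, 2 regulators and 0 lymphocyte markers higher, and 5 partners lower. With DESeq2, 2 other claudins and 2 regulators were lower and 1 hepatocyte marker was higher, and with at least 1 count in any library 2 other claudins and 2 regulators were lower.

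Deviations of same-numbered livers correlated at 0.0371, 0.0331 and -0.0279, and those of differently numbered livers at -0.0654 to 0.0325. The methods name littermates as controls, and whether the replicate numbers follow litters is not given. These correlations cannot exclude a pairing. With the replicate number as a block, *Cldn14* at 0.49 passed (adjusted p = 0.0343, edgeR), 5 of the 10 genes were higher and 2 lower, and 3084 of all genes were higher and 3016 lower. Depth limited *Cldn4* in control livers, with 1 count in all 3 libraries.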
